A study of Mus musculus with 25 samples.

Results

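Pituitaries taken 5 days after the removal of doxycycline (dox) from sh*Rb* mice were compared with pituitaries of sh*Rb* mice that were still on dox. The comparison and the gene lists used below were chosen with earlier results of these data known. The labels alone assigned the mice to the groups, 3 females 16 weeks on dox and then 5 days off it (5d -dox) and 3 males 16 weeks on dox (16w +dox), which made 6 of the 25 mice of the series and 6 of the 13 in its short-term experiment. All of them carry the *Rosa26* allele that makes the dox-dependent activator rtTA and, at *Col1a1*, a dox-dependent shRNA against *Rb* linked to a GFP reporter, and the labels name the strain shRB. The controls therefore held the same alleles and had been given the same drug, and no mouse without dox was part of the short-term experiment. Further limits of the model are that it rests on 1 shRNA (shRb5) and 1 embryonic stem cell clone (shRb5-4), that the broadly active *Rosa26* promoter drives rtTA in many tissues and not only in the tumor, and that the labels give no age. The other short-term mice, 4 females 1 day off dox (1d -dox) and 3 males 3 days off dox (3d -dox), entered the same fit. Every 5d -dox mouse was female and every 16w +dox mouse male, so in this comparison sex and days off dox cannot be told apart.

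The retinoblastoma protein RB holds back the E2F transcription factors, which switch on genes for DNA replication and cell division. In mice that lose RB, tumors arise from the melanotrophs of the intermediate lobe of the pituitary, cells that process the hormone precursor made from *Pomc*. Around them in the normal gland lie the hormone cells of the anterior lobe (somatotrophs, lactotrophs, thyrotrophs, gonadotrophs and corticotrophs) and a dense network of capillaries, with pericytes, fibroblasts and macrophages. RNA from bulk tissue can hold all of these. The paper describes the tissue sequenced in the short-term experiment as pituitary tumors, so how much of the other cells each sample held is not known.

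Expression is given as FPM, a read count scaled by DESeq2 size factors. Each 16w +dox library held 10483790 to 11196078 gene reads and each 5d -dox library 10228327 to 11245401. Unmapped reads made up 40.3% to 44.2% of the libraries at 5d -dox and 36.1% to 37.0% at 16w +dox, without overlap, and their part in the results was not tested. The label of the tissue was borne out by its markers, since between 12.3% and 17.9% of gene reads in the 6 mice came from *Pomc*, and *Pax7*, the transcription factor that specifies melanotrophs, had mean values of 156.6 FPM at 16w +dox and 159.6 at 5d -dox. Replicate mice of a group differed by more than counting error (chi-square per degree of freedom 4.01 to 18.9 at 16w +dox and 5.67 to 15.2 at 5d -dox), so each mouse was counted as 1 replicate. The labels say nothing on litters or batches, and p-values measure the spread between these mice.

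Dox removal was read out first from the reporter. GFP, which is transcribed together with the shRNA, stood at 1360.4, 1025 and 1354 FPM in the 16w +dox mice and at 10.5, 15.2 and 9.34 FPM in the 5d -dox mice. The groups lay far apart, and the mean at 5d -dox was 0.937% of the mean on dox. The log2 fold change of GFP was -6.69 (standard error 0.31, adjusted p = 3.77e-08, limma with Benjamini-Hochberg adjustment), where an exact permutation test of 3 against 3 mice can give no less than 0.1. At least 332 reads lay behind each of these values, so the reporter transcript was low but still measured at 5d -dox. It was the one gene that also fell against the females 1 day off dox (log2 fold change -5.59, adjusted p = 1.82e-07, limma).

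The transcript that the shRNA targets did not pass the test. *Rb*, listed as Rb1, measured 4.89, 3.47 and 4.21 FPM at 16w +dox and 5.38, 5.04 and 4.92 FPM at 5d -dox. Each female off dox was above each male on dox, as was so for 9.64% of all genes. The mean at 5d -dox was 122% of the mean at 16w +dox. The log2 fold change of Rb1 was 0.27 (standard error 0.17, adjusted p = 0.525, limma), with a 95% interval for the fold from 0.933 to 1.56. Against 1d -dox it was 0.20 (adjusted p = 0.857, limma). The transcript stretch that shRb5 was designed against is shown because it ties the reporter to its target. It lies in the coding sequence of Rb1, in exon 22 of 27, at chr14:73206076-73206096 on the minus strand of GRCm38, and all 21 bases were found in the transcripts of 1 gene. Capitals mark the 7 bases that pair with bases 2 to 8 of a guide strand, the seed, when the guide is taken to be the exact complement of the target, which is an assumption made here.
shRb5 target: gaggagtttgattCCATTATa
complement of the target: tATAATGGaatcaaactcctc

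Loss of a small RNA can also move other transcripts that pair with its seed, and such sites were counted in 3′ untranslated regions. The 926 genes with 1 seed site had a median log2 fold change of -0.016 from 16w +dox to 5d -dox. It was -0.034 for the 86 genes with more sites and -0.0034 for the 12160 genes without a site. The median transcript GC content of these sets, in the same order, was 46.0%, 43.9% and 50.3%. With the trend on GC content described below removed from each library, the medians were -0.0037, -0.0080 and -0.0095, so their order was not kept. None of the genes with a site was called and 26 of those without one were. Over all genes tested 0.193% were called, so 0 calls in the smaller sets does not set them apart.

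**Figure D1:**
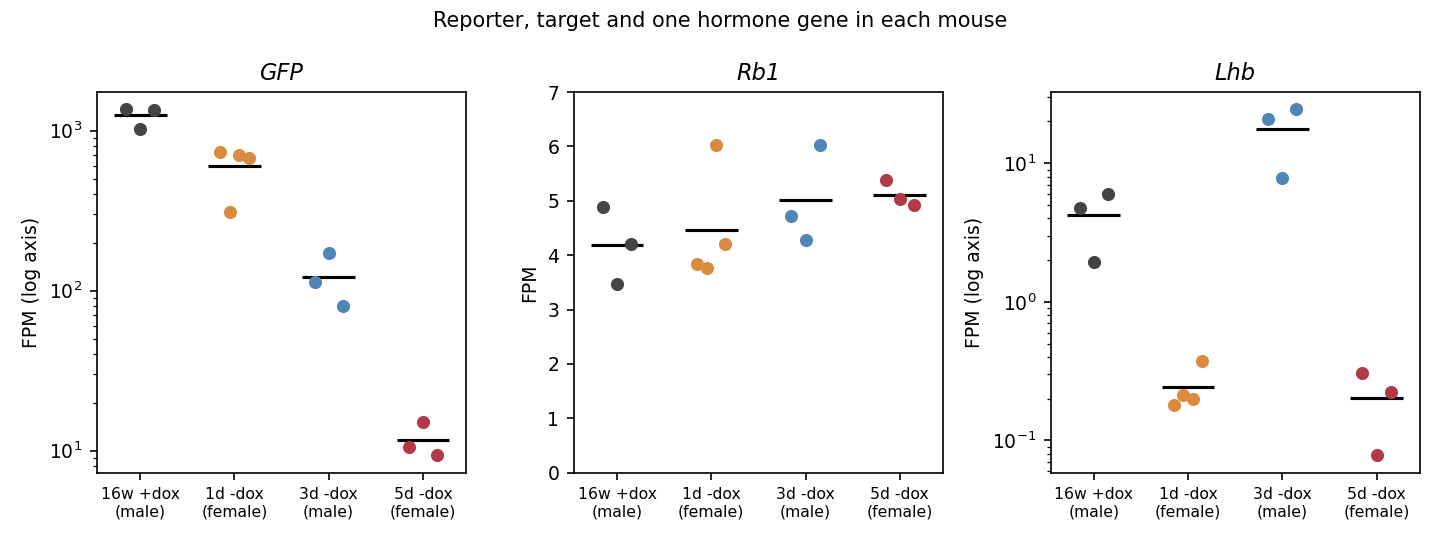
FPM of GFP, Rb1 and Lhb in each of the 13 short-term mice, by group, with the sex from the labels (points are mice, bars are group means, and the axes of GFP and Lhb are logarithmic). GFP at 5d -dox lies between 9.34 and 15.2 FPM, Rb1 between 4.92 and 5.38 FPM, and Lhb is low in both female groups.

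No other member of the RB pathway passed the test. Of 31 genes for RB family proteins, E2F factors, their partners in the DREAM complex, G1 cyclins, kinases and inhibitors, 0 were called in the limma fit across all genes. Over all genes tested 0.193% were called, so 0 calls in this list, or in the lists below, does not set a list apart. At an unadjusted p under 0.05, 3 were higher (7.2% of all genes were) and 2 lower (6.33% of all genes). The median log2 fold change was 0.074. *E2f1*, an activating E2F, measured 6.59, 4.38 and 5.95 FPM on dox and 6.81, 7.401 and 8.05 FPM at 5d -dox (log2 fold change 0.38, adjusted p = 0.263, limma). The cyclin gene *Ccnd2*, whose product works with CDK4 and CDK6, had the smallest p of the list. It measured 3.84, 3.80 and 4.57 FPM on dox and 2.30, 2.78 and 2.36 FPM at 5d -dox (log2 fold change -0.62, adjusted p = 0.204, limma). It was about as low at 1d -dox, at 2.19 to 3.37 FPM. The 42 S phase genes of a common cell cycle list had a median of 0.097 and the 52 genes of G2 and mitosis -0.016, with 0 called in both lists. At an unadjusted p under 0.05, 2 S phase genes were higher and 1 lower, and of G2 and mitosis 1 was higher and 0 lower. Over all genes 7.2% were higher and 6.33% lower at that threshold. Leaving out 16w +dox replicate 1 gave 0.16 and 0.089 for the medians of these lists, and leaving out 16w +dox replicate 2 gave 0.036 and -0.13.

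Calls needed an adjusted p (Benjamini-Hochberg) under 0.05 together with a log2 fold change beyond 1 in either direction. Of 13958 genes tested with limma, 12 were called higher (0.086%) and 15 lower (0.107%) at 5d -dox, together 0.193%, and in all 27 the 3 and 3 mice did not overlap, as was so for 19.3% of all genes. By the adjusted p alone, 47 were higher (0.337%) and 24 lower (0.172%), together 0.509%, and at an unadjusted p under 0.05 there were 1005 and 884 (13.5%). Over all genes the log2 fold change had a median of -0.00089, and 90% of them lay between -0.41 and 0.40. DESeq2 on the recovered reads called 36 higher and 103 lower, and limma on the 6 mice alone 1 and 4. The count rested on single mice. Without 5d -dox replicate 3 it was 1 higher and 1 lower, without 5d -dox replicate 2 it was 5 and 5, without 16w +dox replicate 1 it was 5 and 3, without 5d -dox replicate 1 it was 8 and 8, without 16w +dox replicate 2 it was 10 and 7, and without 16w +dox replicate 3 it was 17 and 14. GFP and *H1fx* alone kept their call without each of the 6 mice in turn. In a fit with sex as a covariate and days off dox as a straight line, GFP was the one gene called. That fit took its slope from all 13 mice, and every later value with sex as a covariate comes from it.

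**Figure D2:**
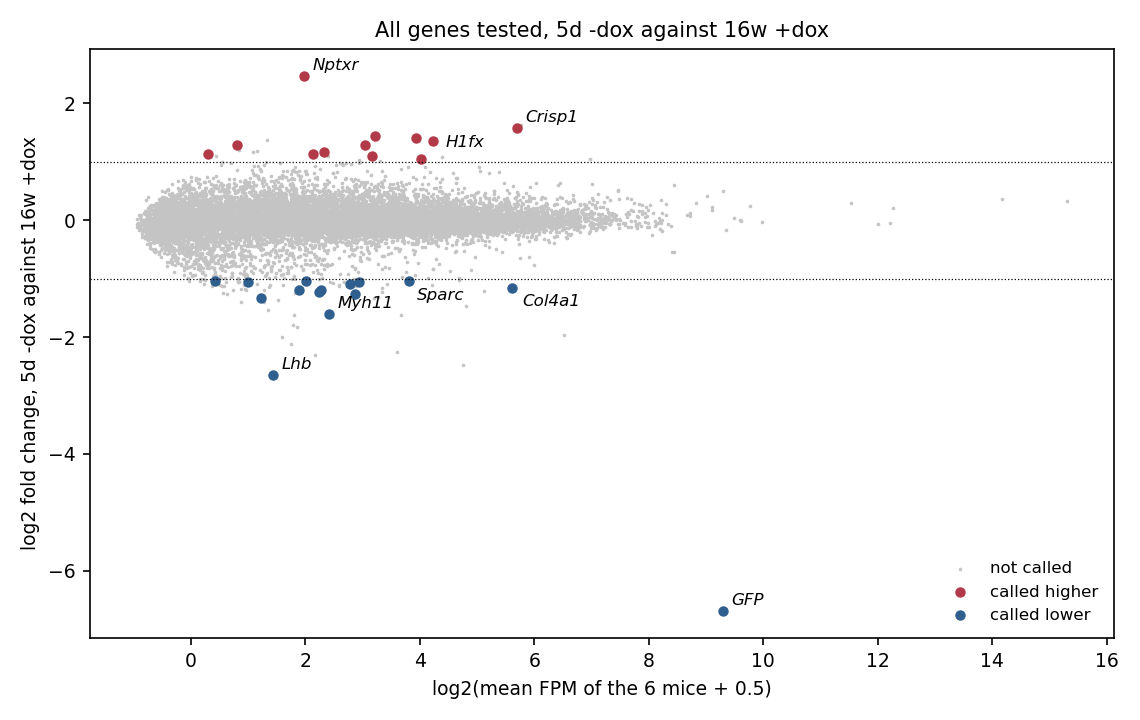
Log2 fold change from 16w +dox to 5d -dox against the log2 of the mean FPM of the 6 mice plus 0.5, for the 13958 genes tested. The 12 genes called higher are red and the 15 called lower blue, dotted lines mark a log2 fold change of 1 in either direction, and GFP at -6.69 lies apart from all others.

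Of the 14 endogenous genes that fell, 6 were listed markers of endothelial cells or of pericytes and smooth muscle. *Cdh5*, which encodes the cadherin of endothelial junctions, measured 5.37, 6.92 and 5.90 FPM at 16w +dox and 2.52, 2.86 and 1.66 FPM at 5d -dox. Cdh5 thus fell by 1.22 on the log2 scale (standard error 0.20, adjusted p = 0.0135, limma). *Flt1*, which encodes VEGF receptor 1, measured 5.24, 7.51 and 5.95 FPM on dox and 3.48, 2.21 and 1.83 FPM off it (log2 fold change -1.19, adjusted p = 0.0291, limma). The highest 5d -dox mouse thus stayed below the lowest 16w +dox mouse for both genes. *Esam*, for another endothelial junction protein, fell by 1.04 on the log2 scale (adjusted p = 0.0415), and *Mmrn2*, for a matrix protein that endothelial cells secrete, fell by 1.33 (adjusted p = 0.0215). *Adgrf5*, for an adhesion receptor found in endothelium, fell by 1.20 (adjusted p = 0.0342, limma for all 3).

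Counted over the whole list of 14 endothelial markers, 3 were called lower (0.107% of all genes) and 0 higher, 12 were lower at an unadjusted p under 0.05 (6.33% of all genes were), and 11 did not overlap between the groups in that direction (9.64% of all genes). The median log2 fold change of the list was -0.91. The summed FPM of the list lay between 40.3 and 64.0 at 16w +dox and between 17.3 and 25.04 at 5d -dox. The markers that stood outside were *Vwf* (log2 fold change -0.21) and *Cldn5* (0.068, at mean values of 0.0772 and 0.107 FPM), for the tight junction protein of brain capillaries. *Kdr*, which encodes the main signaling receptor for VEGF, had a log2 fold change of -1.06 with an adjusted p of 0.14 in limma and was not called. In bulk tissue, fewer cells of a type and less RNA per cell cannot be told apart.

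The promoter of Flt1 (RefSeq, GRCm38.p6, minus strand, chr5:147726012-147726261, the 250 bases before the transcription start) is shown as an example of an endothelial gene of this group. Capitals mark the core of ETS factor sites, GGAAG, searched on both strands. Of the 15 genes called lower, 8 had a promoter in the table used.
Flt1 promoter: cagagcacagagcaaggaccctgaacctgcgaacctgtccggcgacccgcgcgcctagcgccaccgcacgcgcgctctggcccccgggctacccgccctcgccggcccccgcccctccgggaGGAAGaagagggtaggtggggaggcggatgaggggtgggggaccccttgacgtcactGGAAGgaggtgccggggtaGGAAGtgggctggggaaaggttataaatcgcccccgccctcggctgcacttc

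The motif was found 3 times here. It is common, since 66.9% of all genes with a promoter in the table held it at some start and 5 of the 8 lower genes did, so the match describes this window and says nothing of binding.

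Pericyte and smooth muscle genes lay lower to a similar degree. *Myh11*, the myosin heavy chain of smooth muscle, measured 3.82, 13.7 and 5.69 FPM on dox and 1.96, 2.23 and 1.52 FPM at 5d -dox (log2 fold change -1.60, standard error 0.33, adjusted p = 0.0478, limma). *Notch3*, the Notch receptor of vascular smooth muscle, measured 7.79, 12.7 and 8.65 FPM on dox and 5.02, 4.16 and 2.28 FPM off it (log2 fold change -1.27, adjusted p = 0.0376, limma). *Pdgfrb*, which encodes the receptor that recruits pericytes, fell by 1.06 on the log2 scale (adjusted p = 0.0236, limma). Of the 9 genes of the list, 3 were called lower (0.107% of all genes), 0 were called higher and 9 lay below 0, with a median log2 fold change of -1.02 and summed FPM of 60.03 to 102.3 on dox against 26.6 to 42.1 at 5d -dox.

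Matrix genes followed the same order. *Sparc*, whose product binds collagen, was tightly grouped at 17.7, 19.4 and 17.9 FPM on dox and at 8.58, 8.86 and 8.44 FPM at 5d -dox (log2 fold change -1.05, standard error 0.16, adjusted p = 0.0121, limma). *Col4a1*, a collagen of basement membranes, measured 65.8, 67.3 and 65.9 FPM on dox and 29.0, 36.2 and 24.4 FPM off it (log2 fold change -1.16, adjusted p = 0.0121, limma). Both genes thus stood at about the same level in the 3 mice on dox, with the 3 mice off dox well below. Of the 18 fibroblast and matrix genes tested, 1 was called lower (0.107% of all genes) and 0 higher, 10 were lower at an unadjusted p under 0.05 (6.33% of all genes), and the median log2 fold change was -0.81. *Col3a1* (log2 fold change -1.36, adjusted p = 0.0773, limma) and *Mgp* (-1.33, adjusted p = 0.113) had larger differences than *Sparc* with more spread between mice. *Lox*, the enzyme that cross-links collagen, was the one gene of the list above 0 (0.40). Among the called genes without a list, *Axl*, which encodes a receptor tyrosine kinase, fell by 1.09 and *Prss23*, for a serine protease, by 1.06. *Shisa9*, for a protein associated with AMPA receptors, fell by 1.05 on the log2 scale (adjusted p = 0.04, limma) and was picked out after its values were seen.

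At 1d -dox, in the other group of females, these vessel and matrix genes were also below 16w +dox on average. Some stood near their 5d -dox level and others between the groups. From 1d -dox to 5d -dox the log2 fold changes of those called ran from -0.66 (*Flt1*) and -0.53 (*Adgrf5*) to -0.12 (*Cdh5*) and -0.083 (*Sparc*). None of these passed the adjusted p in limma. *Flt1* measured 3.27 to 5.07 FPM at 1d -dox. *Sparc* measured 7.55 to 12.6 FPM at 1d -dox and 15.9 to 24.5 FPM at 3d -dox, in males. *Cdh5* measured 2.06 to 3.19 FPM at 1d -dox and 5.08 to 7.95 FPM at 3d -dox, so that both male groups were above both female groups. From 1d -dox to 5d -dox the median log2 fold change was -0.24 for the endothelial, -0.14 for the pericyte and -0.053 for the matrix list. With sex as a covariate and days as a straight line, the medians from 16w +dox to 5d -dox were -0.074, -0.25 and -0.044.

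**Figure D3:**
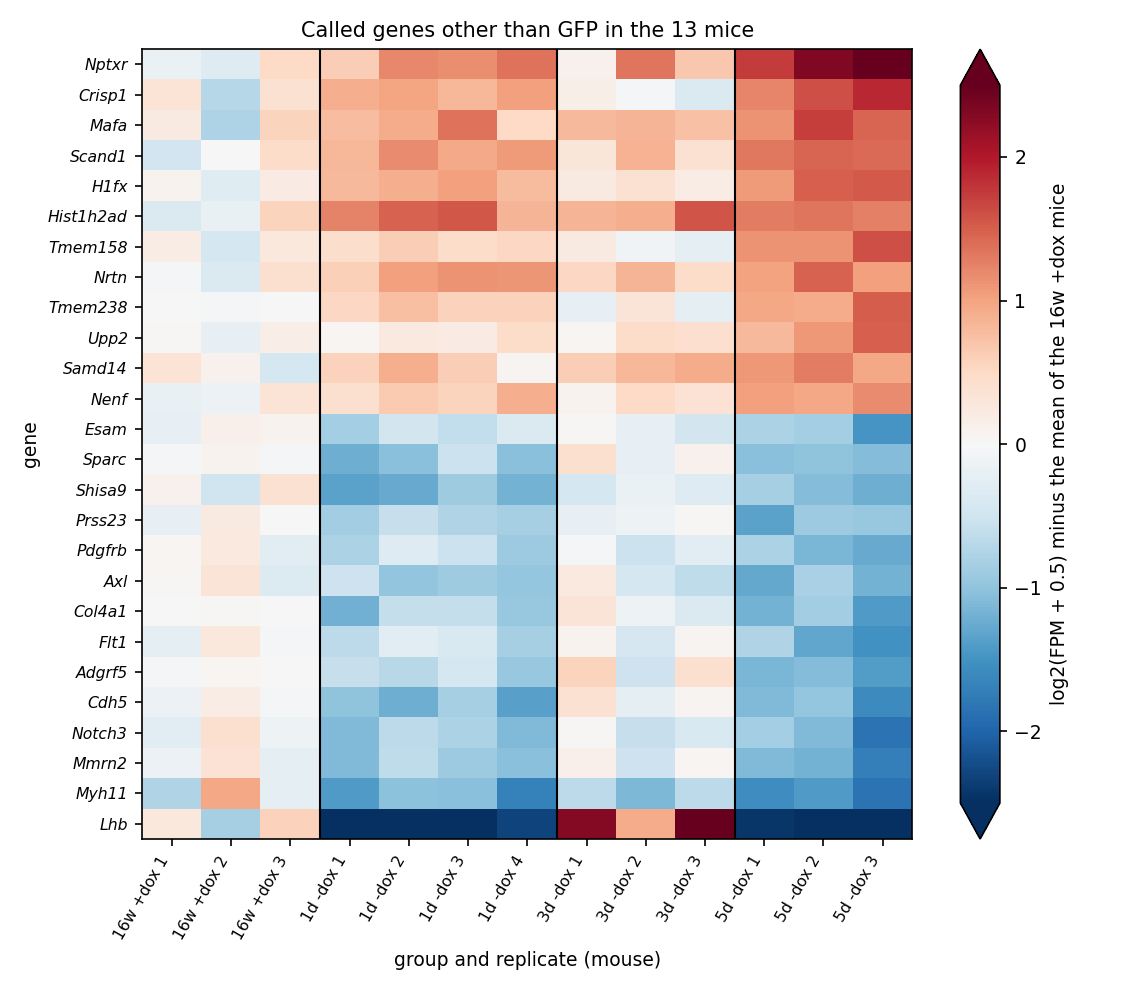
Difference in log2(FPM + 0.5) from the mean of the 16w +dox mice for the 26 called genes other than GFP (rows) in each of the 13 mice (columns, replicate numbers after the group; red is higher, blue lower, and colors saturate at 2.5). The vessel and matrix genes are blue in both female groups, 1d -dox and 5d -dox, and near white in most 3d -dox males, while *Nptxr* and *Crisp1* are darkest at 5d -dox.

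Hormone genes of gonadotrophs lay furthest below the dox-treated group. *Lhb*, which encodes the beta subunit of luteinizing hormone, measured 4.74, 1.95 and 6.00 FPM at 16w +dox and 0.308, 0.0779 and 0.225 FPM at 5d -dox. They rest on 3 to 235 reads a mouse. The log2 fold change of Lhb was -2.65 (standard error 0.38, adjusted p = 0.011, limma), which the added 0.5 FPM holds down, since the means differed 20.8-fold. *Fshb*, for the beta subunit of follicle-stimulating hormone, measured 5.22, 0.882 and 9.57 FPM on dox and 0.280, 0.312 and 1.01 FPM off it, and the groups overlapped (log2 fold change -2.13, adjusted p = 0.122, limma). All 7 gonadotroph genes tested were lower at an unadjusted p under 0.05 (6.33% of all genes), 1 of them was called (0.107% of all genes), 0 were called higher, and the median was -2.13. The others were *Gnrhr*, the receptor for gonadotropin-releasing hormone (-2.32), *Nr5a1*, which encodes the transcription factor SF-1 (-2.01), *Foxl2* (-1.17), *Tgfbr3l* (-1.79) and *Cga*, for the shared alpha subunit (-2.25). Summed over the list, expression lay between 20.6 and 97.6 FPM on dox and between 3.84 and 5.83 FPM at 5d -dox. Without 16w +dox replicate 2 the median was -1.34.

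The promoter of Lhb is shown because SF-1, whose gene was among those below 0, is known to act on gonadotropin genes. The window is the 250 bases before the start (RefSeq, GRCm38.p6, plus strand, chr7:45420696-45420945), and capitals mark the SF-1 motif TGACCTTG, searched on both strands.
Lhb promoter: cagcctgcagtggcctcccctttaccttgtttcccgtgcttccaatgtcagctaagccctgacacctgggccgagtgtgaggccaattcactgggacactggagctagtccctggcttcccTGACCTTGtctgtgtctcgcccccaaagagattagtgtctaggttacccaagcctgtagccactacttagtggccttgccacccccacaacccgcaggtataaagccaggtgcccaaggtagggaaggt

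The motif occurred 1 time here and in 1.51% of all genes with a promoter in the table. A match of letters is not a measured site.

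The *Lhb* transcript was as low 1 day off dox. *Lhb* measured 0.180 to 0.374 FPM at 1d -dox and 7.77 to 24.5 FPM at 3d -dox, and from 1d -dox to 5d -dox its log2 fold change was -0.083 (adjusted p = 0.978, limma). The median of the gonadotroph list was 0.19 in that comparison of females. With sex as a covariate and days as a straight line, the list's median from 16w +dox to 5d -dox was 0.66 and Lhb itself stood at 0.98, so the direction turned, and sex and time off dox cannot be told apart for these genes.

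Genes of other anterior lobe hormone cells were lower on average without passing the test. *Gh*, for growth hormone, measured 175, 85.4 and 161 FPM on dox and 29.9, 16.6 and 78.7 FPM at 5d -dox (log2 fold change -1.96, adjusted p = 0.229, limma). No 5d -dox mouse reached the lowest *Gh* value on dox, as was so for 9.64% of all genes. *Prl*, for prolactin, measured 7.26, 93.5 and 12.7 FPM on dox and 23.7, 6.47 and 18.4 FPM off it, and the groups overlapped (-0.53, adjusted p = 0.849). Of the 9 genes of somatotrophs, lactotrophs and thyrotrophs 0 were called and 3 were lower at an unadjusted p under 0.05 (6.33% of all genes). *Cga* is among these 3 and was already counted in the gonadotroph list. The median was -1.04, and -0.56 without 16w +dox replicate 2. With sex as a covariate and days as a straight line the direction turned, with a median of 0.54 and Gh at 0.43. That fit also drew on the 3d -dox males, where the list's median against 16w +dox was 0.71 and Gh measured 125 to 696 FPM. It is therefore not a direct comparison of 5d -dox with 16w +dox. From 1d -dox to 5d -dox the median was 0.21.

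Among genes of the melanotroph lineage none passed the test. *Pomc* measured 35873, 34394 and 36965 FPM on dox and 40260.3, 39174 and 56503 FPM at 5d -dox, where replicate 3 stood highest, a difference of 0.32 on the log2 scale (standard error 0.46, adjusted p = 0.813, limma). Of 10 melanotroph and corticotroph genes 0 were called and 0 had an unadjusted p under 0.05, with a median of 0.20. The receptor gene *Drd2*, through which dopamine restrains melanotrophs, had mean values of 123.7 and 149 FPM (log2 fold change 0.31, adjusted p = 0.454). One granule gene passed the adjusted p below the minimum fold. *Scg2*, for secretogranin 2, measured 398, 447 and 395 FPM on dox and 274, 286 and 292 FPM at 5d -dox (log2 fold change -0.54, standard error 0.11, adjusted p = 0.0414, limma). It measured 252 to 337 FPM at 1d -dox. Of the 19 genes for secretory granules and prohormone processing 0 were called, and the median was 0.14. At an unadjusted p under 0.05, 2 were higher (7.2% of all genes) and 2 lower (6.33% of all genes).

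The 12 genes that rose had no list in common. *Nptxr*, for the neuronal pentraxin receptor of synapses, rose most, from 0.474, 0.374 and 1.05 FPM at 16w +dox to 3.20, 4.93 and 10.7 FPM at 5d -dox (log2 fold change 2.47, standard error 0.38, adjusted p = 0.0121, limma). *Crisp1*, which encodes a cysteine-rich secretory protein best known from the epididymis, went from 31.8, 14.97 and 32.4 FPM to 58.9, 77.3 and 93.0 FPM (log2 fold change 1.57, adjusted p = 0.0121, limma). Replicate 3 was the highest of the 5d -dox mice for both. At 1d -dox both genes lay between the groups, *Nptxr* at 1.19 to 2.32 FPM and *Crisp1* at 44.7 to 51.3 FPM, and neither passed the test from 1d -dox to 5d -dox (log2 fold changes 1.38 and 0.64, adjusted p = 0.454 and 0.685, limma).

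*Mafa*, a transcription factor known from insulin-producing beta cells, went from 5.14, 2.35 and 6.61 FPM to 10.1, 15.5 and 12.8 FPM (log2 fold change 1.43, adjusted p = 0.0373, limma). *Nrtn*, for the GDNF family ligand neurturin, rose by 1.17 (adjusted p = 0.0236), *Nenf*, for the secreted protein neudesin, by 1.06 (adjusted p = 0.011), and *Upp2*, a uridine phosphorylase, by 1.13 (adjusted p = 0.0223). *Scand1* (1.40), *Tmem158* (1.29), *Tmem238* (1.13) and *Samd14* (1.11) rose as well, with adjusted p from 0.011 to 0.0342 in limma. From 1d -dox to 5d -dox the log2 fold changes of these 8 genes lay between 0.21 and 0.90, and 0 of them were called.

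*H1fx*, which encodes a linker histone made outside S phase, had the smallest p of all endogenous genes. It measured 10.6, 7.91 and 11.4 FPM at 16w +dox and 21.2, 28.6 and 29.5 FPM at 5d -dox. The log2 fold change of H1fx was 1.36 (standard error 0.14, adjusted p = 6.57e-04, limma), and it ranged from 1.21 to 1.51 over fits that lacked 1 mouse and was 0.54, and not called, with sex as a covariate. At 1d -dox H1fx measured 17.5 to 20.5 FPM and at 3d -dox 11.2 to 12.95 FPM. Its promoter, listed under the newer symbol H1f10 (RefSeq, GRCm38.p6, minus strand, chr6:87981483-87981732, the 250 bases before the start), is shown because H1fx had the smallest p of the risen genes. Capitals mark the GC box, GGGCGG, searched on both strands.
H1fx promoter: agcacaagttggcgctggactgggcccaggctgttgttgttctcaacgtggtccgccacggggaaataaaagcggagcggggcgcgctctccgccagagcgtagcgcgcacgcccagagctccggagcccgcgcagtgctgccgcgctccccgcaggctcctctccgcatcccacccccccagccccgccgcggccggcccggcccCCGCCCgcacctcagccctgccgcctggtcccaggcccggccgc

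The GC box was found 1 time here. It stood in 6 of the 7 risen genes with a promoter in the table and in 35.4% of all genes of the table. That table covers 27025 genes, whether or not they were tested here. The risen genes were rich in GC, as given below, and no genes of like GC content were compared. The match describes this window and says nothing of binding.

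Transcript GC content moved with the rise. The 12 genes called higher had a median GC content of 62.4% (36.7% to 72.8%), against 49.8% over all genes and 53.4% over the genes called lower, and 10 of the 12 lay in the highest of 10 equal groups of genes by GC content. Their median transcript length was 1396 bases, against 3441 over all genes. Across genes the log2 fold change had a Spearman correlation of 0.14 with GC content (13847 genes, which share libraries and are not independent). Within libraries, the correlation of GC content with a gene's difference from its mean ran from 0.096 to 0.16 at 5d -dox and from -0.076 to 0.016 at 16w +dox. When the trend on GC content was removed from each library, 7 genes were called higher and 16 lower. H1fx then stood at 1.02 (adjusted p = 0.0018, limma), Nptxr at 2.41 (adjusted p = 0.0192) and Crisp1, at a GC content of 36.7%, at 1.60 (adjusted p = 0.0186). Mafa, Hist1h2ad, Nrtn and Samd14 no longer passed the adjusted p (0.0579 to 0.0647), and Nenf, at 0.95, no longer passed the minimum fold.

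**Figure D4:**
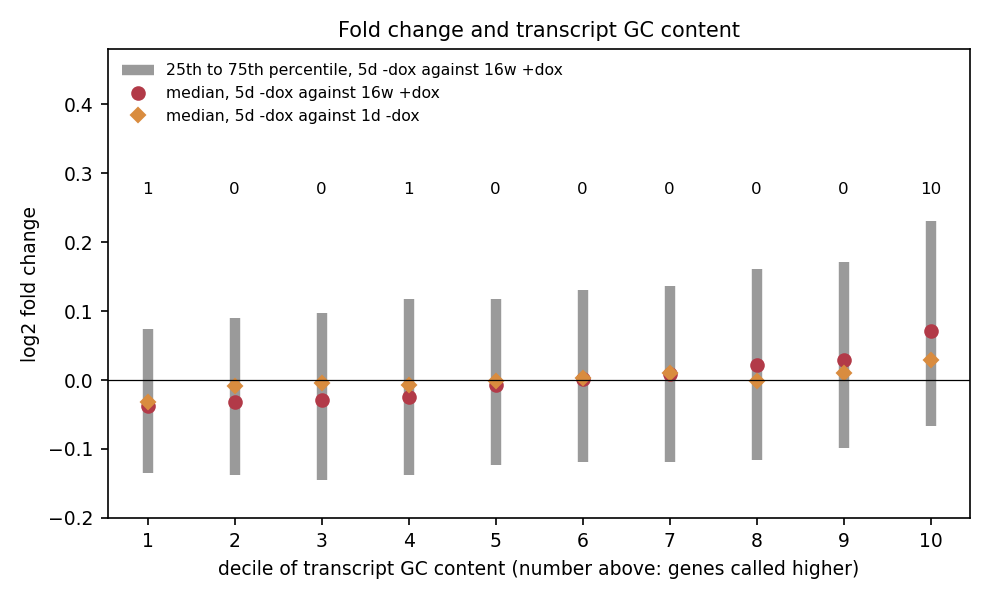
Median log2 fold change of the genes in 10 equal groups by transcript GC content, from low (1) to high (10), with bars from the 25th to the 75th percentile and the number of genes called higher above. The median from 16w +dox to 5d -dox runs from -0.038 in the lowest to 0.071 in the highest group, which holds 10 of the 12 genes called higher.

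Genes of cholesterol synthesis and uptake stood together above the dox-treated group. All 18 genes tested were above 0, 17 were higher at an unadjusted p under 0.05 (7.2% of all genes were), 14 did not overlap between the groups in that direction (9.64% of all genes), and 0 were called. The median log2 fold change was 0.48, and the summed FPM, from the lowest mouse to the highest, was 233, 241 and 252 at 16w +dox and 332, 348 and 364 at 5d -dox. *Fdps*, for farnesyl diphosphate synthase, measured 11.8, 9.41 and 12.8 FPM on dox and 19.5, 21.6 and 23.8 FPM off it, and it passed the adjusted p but not the minimum fold (log2 fold change 0.91, standard error 0.19, adjusted p = 0.0478, limma). *Insig1*, a sterol-sensing regulator, stood at 0.65 (adjusted p = 0.168, limma) and *Srebf2*, the transcription factor that drives the pathway, at 0.32. The list's summed FPM was 282 to 308 at 1d -dox and 208 to 326 at 3d -dox. Its median was 0.27 from 1d -dox to 5d -dox, 0.48 with the GC trend removed and 0.23 with sex as a covariate. Fits that lacked 1 mouse gave 0.40 to 0.57.

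Clustered histone genes, whose messages are made in S phase, were mostly above 0. Of 58 genes, 56 were above 0 at 5d -dox, 16 were higher at an unadjusted p under 0.05 (7.2% of all genes) and 0 lower. The median log2 fold change was 0.27. *Hist1h2ad* was called (0.275, 0.374 and 0.970 FPM on dox and 1.93, 2.03 and 1.89 FPM off it, log2 fold change 1.29, adjusted p = 0.0403, limma) and 0 were called lower. Copies of these genes are nearly identical, so how reads were shared among them is uncertain. From 1d -dox to 5d -dox the median was -0.20. Without 16w +dox replicate 2 the median from 16w +dox to 5d -dox was 0.13, and with sex as a covariate it was -0.048.

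**Figure D5:**
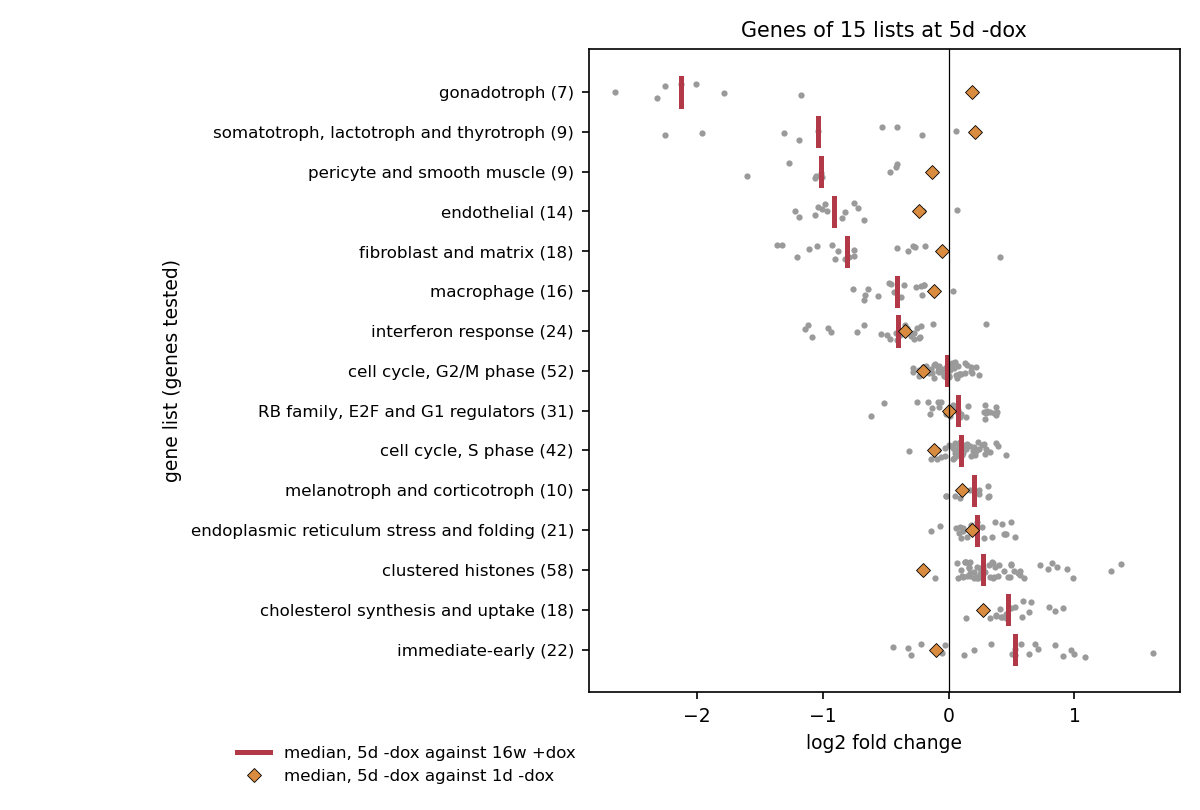
Log2 fold change from 16w +dox to 5d -dox for each tested gene (gray points) of 15 lists, with the list's median (red bar) and its median from 1d -dox to 5d -dox (orange diamond). The medians of the gonadotroph, vessel and matrix lists lie below 0 against 16w +dox. Against 1d -dox they are 0.19 (gonadotroph), -0.24 (endothelial), -0.14 (pericyte and smooth muscle) and -0.053 (fibroblast and matrix). The median of the cholesterol list is 0.48 against 16w +dox and 0.27 against 1d -dox.

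The comparison with mice of the same sex, 5d -dox against 1d -dox, called 2 of 13958 genes with limma (0.0143%), GFP lower and 9630028I04Rik higher (0.00716% each). At an unadjusted p under 0.05, 510 genes were higher (3.65%) and 373 lower (2.67%), together 6.33%. Without 1d -dox replicate 2 the counts were 2 higher and 1 lower, and without 5d -dox replicate 2 they were 1 and 2. The gene 9630028I04Rik, an uncharacterized locus picked out after its values were seen, measured 0.722, 0.702, 0.548 and 0.631 FPM at 1d -dox and 2.52, 2.29 and 2.64 FPM at 5d -dox. Its log2 fold change was 1.38 (adjusted p = 0.00247, limma). At 16w +dox 9630028I04Rik measured 1.75, 0.935 and 1.48 FPM, so that the 5d -dox mice were also above these, though not past the adjusted threshold (log2 fold change 0.68, adjusted p = 0.089, limma). Against the males 3 days off dox, where sex and time again cannot be told apart, 43 genes were called higher (0.308%) and 110 lower (0.788%) at 5d -dox, together 1.1%.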

How the data were processed

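Pituitaries were snap-frozen and mRNA libraries, per the labels prepared by rRNA depletion in this experiment, were sequenced in 150-base read pairs. The authors mapped reads to mm10 with STAR, counted them on RefSeq genes, kept genes with at least 10 reads in over 50% of the samples of 1 condition, and deposited a signal in FPM, counts divided by DESeq2 size factors and scaled to library size. The counting tool and its strand setting are not given in the sources used here. All 182091 values were whole reads within 0.1 read. The 4 lines that name no gene, 68.8% to 75.0% of the reads in the 6 mice, were left out.

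Tests used limma 3.58.1 in R 4.3.3 with a mean trend on log2(FPM + 0.5), which understates folds of low genes, over 13 mice in 4 groups and 13958 of 14007 genes (at least 10 reads in over 50% of the mice of a group). Calls needed an adjusted p under 0.05 and a log2 fold change beyond 1. Tested on simulated data for 5d -dox against 16w +dox with 13958 genes, the fit called 90 of 100 genes at a log2 fold of 1.5, 99 of 100 at 3 and 0 of 13758 unchanged. The changed genes were taken only from those above a minimum mean read count. Each gene was drawn on its own, without variation that the genes of a mouse share, so these rates need not hold for the real mice. Alternatives used edgeR 4.0.16, DESeq2 1.42.0, other scalings, filters and pseudocounts, the mice compared alone, sex as a covariate, a replicate block, single mice left out and a GC trend.

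The comparison and the gene lists were chosen with earlier results of these data known. Named were GFP, Rb1, hormone genes, the 12 called genes with the largest fold in each direction without predicted names, and in each list up to 4 called members or the 1 with the smallest p. Other list members, Shisa9 and 9630028I04Rik were picked after their values were seen. Sex labels were not examined from expression, since 0 genes of the sex-linked list were tested. The table of the longer experiment was not used here. Promoters came from RefSeq and the target's position from a GRCm38 annotation. Some genes of the lists are not reported here by name.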

Additional observations from a re-analysis of the deposited data

Results flagged for a closer look

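GFP at 1d -dox had a mouse far from the others, at 310.0 FPM beside 670 to 741 FPM, and *Axl* had one at 6.01 FPM beside 4.18 to 4.49 FPM. These gaps passed the critical value of Dixon's test among 29 genes looked at in this group of 4 mice, where chance passes about 1 in 20.

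The groups off dox were also compared with each other for the 29 genes looked at, the 27 called from 16w +dox to 5d -dox with Rb1 and 9630028I04Rik. The 5d -dox values that chose all of them but Rb1 enter these differences too, which are therefore no separate evidence. The difference from the shared 16w +dox mice was not the same in all groups off dox for the genes below. Each had an adjusted p under 0.05 for the difference itself in the same limma fit. Between 5d -dox and 1d -dox, both female, it differed for GFP (-5.59) and 9630028I04Rik (1.38). Between 5d -dox and 3d -dox, where sex differs too, GFP was lower by the log2 difference of -3.29 and *Lhb* by -4.56. Vessel and matrix genes were lower at 5d -dox than at 3d -dox, with *Adgrf5* at -1.35, *Cdh5* at -1.29, *Mmrn2* at -1.21, *Sparc* at -1.15, *Flt1* at -1.10, *Col4a1* at -1.10, *Notch3* at -0.96, *Esam* at -0.83 and *Pdgfrb* at -0.77. *Prss23* (-0.96), *Axl* (-0.82) and *Shisa9* (-0.74) were lower as well. Higher at 5d -dox than at 3d -dox were *Nptxr* (1.77), *Crisp1* (1.66), *Tmem158* (1.32), *Tmem238* (1.16), *H1fx* (1.10), 9630028I04Rik (0.91), *Scand1* (0.89), *Upp2* (0.82) and *Nenf* (0.74).

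Reads that mapped nowhere were set aside by the comparisons. Their median share was 41.6% at 5d -dox and 36.1% at 16w +dox, and the groups did not overlap.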

How the results depend on the processing

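From 16w +dox to 5d -dox, GFP stayed called and Rb1 not called under every alternative run, with log2 fold changes of -6.89 to -6.55 and of 0.155 to 0.375. The counts of 12 higher and 15 lower genes moved. DESeq2 on recovered reads called 36 and 103, among them all 27, and the adjusted p alone gave 47 and 24. A pseudocount of 1 left 9 lower, the 6 mice alone gave 1 and 4, the GC trend removed (chosen after seeing the data) 7 higher, and sex as a covariate with linear days 0 and 1. With that covariate Lhb (0.98), Fshb (1.75), Cga (0.66), Gh (0.43), Ccnd2 (0.39) and Pomc (-0.14) reversed. Single mice left out gave 1 to 17 higher and 1 to 14 lower genes. From 1d -dox to 5d -dox, DESeq2 called 4 and 3, and single mice left out gave 1 to 2 higher and 1 to 2 lower.

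The replicate numbers do not pair these mice. The correlations of same-numbered mice at 16w +dox and 5d -dox were 0.022, -0.091 and -0.032, and a fit with the number as a block called 11 higher and 7 lower. The quasi-likelihood test of edgeR called 15 and 17. Genes with few reads are limited most by depth, and a sex effect cannot be estimated apart from time. The cause of these moves was not tested.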

Other observations

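Genes that respond to interferon lay below the dox-treated group at 5d -dox. Of 24 tested, 0 were called and 7 were lower at an unadjusted p under 0.05 (6.33% of all genes), 11 did not overlap between the groups in that direction (9.64% of all genes), and the median log2 fold change was -0.40. *Isg15*, for a ubiquitin-like protein, measured 0.774, 0.481 and 0.434 FPM on dox and 0.280, 0.156 and 0 FPM at 5d -dox (log2 fold change -0.73, adjusted p = 0.2, limma). Without 16w +dox replicate 1 the median was -0.21, and with sex as a covariate -0.17. Macrophage markers had a median of -0.41, with 0 of 16 called and 5 lower at an unadjusted p under 0.05 (6.33% of all genes). With sex as a covariate the median was 0.043, so its direction turned in that fit, while from 1d -dox to 5d -dox it was -0.12. Their summed FPM was 34.7 to 44.1 on dox and 22.7 to 33.7 at 5d -dox, and 20.4 to 38.5 at 1d -dox.

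Chaperones and other genes of protein folding in the endoplasmic reticulum lay mostly above 0. Of 21 tested, 19 were above 0, 8 were higher at an unadjusted p under 0.05 (7.2% of all genes) and 0 were called, with a median log2 fold change of 0.23. The median was 0.14 without 5d -dox replicate 3 and -0.004 with sex as a covariate. *Pdia4*, a disulfide isomerase, measured 76.4, 93.2 and 90.1 FPM on dox and 108, 107 and 135 FPM at 5d -dox (log2 fold change 0.43, adjusted p = 0.151, limma). *Hspa5*, the main chaperone of this compartment, stood at 0.12. Of 22 immediate-early genes 0 were called and 4 were higher at an unadjusted p under 0.05 (7.2% of all genes). The median was 0.53, with *Egr1* at 1.62 (adjusted p = 0.335, limma). With sex as a covariate the median of this list was 0.072, and from 1d -dox to 5d -dox it was -0.099.

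Over all genes tested 0.193% were called, so 0 calls in any list of this section does not set it apart. Among 36 calcium, sodium and pacemaker channel genes, 0 were called. *Hcn4*, which encodes a pacemaker channel, passed the adjusted p but not the minimum fold, at 2.22, 2.73 and 2.86 FPM on dox and 5.22, 5.53 and 5.35 FPM at 5d -dox (log2 fold change 0.92, adjusted p = 0.0349, limma). Of 72 nuclear genes of the respiratory chain and 71 of ribosomal proteins, 0 were called, and their medians were 0.017 and 0.029. Of 23 p53 targets and 12 genes of the BCL2 family 0 were called, with medians of 0.018 and 0.043. Of 59 potassium channel genes and 74 of the mitochondrial ribosome 0 were called, with medians of 0.047 and -0.011. *Hspa8*, a cytosolic heat shock protein, stood at -0.54 (adjusted p = 0.0678, limma), and 0 of 12 genes of that list were called. Of 9 markers of stem and folliculostellate cells 0 were called, and the median was 0.29. Other lists with 0 called were ATF4 targets (29 genes, median 0.20), hypoxia and glycolysis (16, 0.10), the circadian clock (17, -0.022), glucocorticoid response (13, -0.12), sex steroid receptors and response (6, -0.20), MHC genes (15, -0.33) and the neural lobe (5, 0.13). Markers of blood and of neighboring tissues were scarce. Of lymphocyte, erythroid, oligodendrocyte, skeletal muscle and cartilage markers 1 each was tested and of neutrophil markers 3, and 0 of them were called.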
